A study of Mus musculus with 5 samples.

Results

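Binding of the transcription factor Gfi1 and of the lysine demethylase Lsd1 was read at 10 Sox genes of neural progenitors, Sox1, Sox2, Sox4, Sox5, Sox6, Sox8, Sox9, Sox10, Sox11 and Sox12. The genes were listed by name, and all 10 were found among the 21938 protein-coding genes of GENCODE M21 on chromosomes 1 to 19, X and Y of mm10. The data are 4 ChIP-seq peak lists from 2 MG medulloblastomas, tumors 39 and 41, each precipitated once with an antibody to Gfi1 and once with an antibody to Lsd1. MG tumors came from Prominin1+ lineage-negative cerebellar stem cells of C57BL/6 pups at postnatal days 5 to 7, which carried retroviral Myc (a point mutant, by the study's methods) and Gfi1 and were transplanted into the cerebella of immunodeficient NSG mice. Both groups of libraries therefore share the same tumors and the same forced Gfi1, there is no group without it, and resected tissue can hold host cells. The input control is labelled as pooled MGB tumors, driven by Myc and Gfi1b, and was not analysed here. The lists give peaks and not RNA, so that neither the expression of a Sox gene nor the markers of the tumor cells can be read from them.

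Sox proteins bind DNA through an HMG box, a domain that bends the double helix, and the family is divided into groups by sequence. Sox1 and Sox2, of group B1, hold neural stem cells in an undifferentiated state. Sox4, Sox11 and Sox12, of group C, act as neurons are formed. Sox5 and Sox6, of group D, lack an activation domain of their own and modulate the other groups, and Sox8, Sox9 and Sox10, of group E, act in glia, with Sox9 also in cerebellar stem cells and Sox10 in the oligodendrocyte lineage. Gfi1 is a zinc finger repressor that recruits Lsd1 through its SNAG domain, and Lsd1 removes methyl groups from histone H3.

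For each gene all peaks in the gene body and 10 kb on either side were taken, which gave 79 of the 125494 peaks in the 4 lists. A peak was counted at a transcription start site (TSS) when it came within 1000 bp of a TSS of any annotated transcript of the gene. Each peak carries the authors' score, whose definition is not given and whose distribution differs between lists. It was therefore turned into a percentile within its own list, with higher values for higher scores. Near the top of each list many peaks had a score of exactly 3100, with 805 and 12 Gfi1 peaks and 113 and 419 Lsd1 peaks in tumors 39 and 41. Only 105 and 1 Gfi1 peaks and 25 and 69 Lsd1 peaks scored higher. Peaks tied at this value cannot be ranked among themselves, and their percentile depends on how many share it. The lists held 36836 and 25078 Gfi1 peaks in tumors 39 and 41, and 30367 and 33213 Lsd1 peaks. They carry no read counts, so that the depth behind a peak is unknown. The 2 tumors of a factor are separate tumors, and errors below are the SD over them.

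The 10 genes covered a wide range, from no TSS peak in most libraries to TSS peaks near the top of every list. Sox4, Sox12, Sox8 and Sox9 had a peak at a TSS between percentile 82.5 and 99.7 in every library. Sox2 and Sox6 had one in every library as well, but between percentile 8.2 and 84.5. Sox1, Sox5, Sox10 and Sox11 lacked a TSS peak in 2 or 3 of the libraries, and where they had one, the highest stood between percentile 40.7 and 74.5. Both ends of this range held members of more than 1 Sox group, with Sox4 and Sox12 apart from Sox11 in group C and Sox8 and Sox9 apart from Sox10 in group E.

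**Figure D1:**
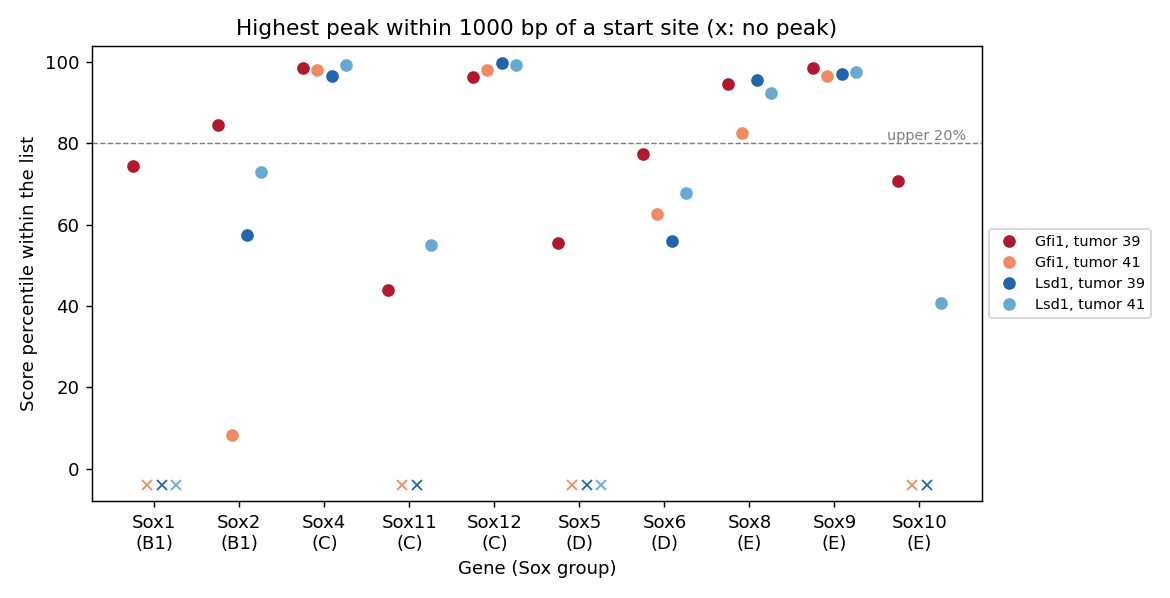
Score percentile (vertical axis, within each list) of the highest peak within 1000 bp of a TSS for the 10 genes, with 1 point per library and a cross where there is no peak. Sox4, Sox8, Sox9 and Sox12 lie above the line for the upper 20% of the list in all 4 libraries, and Sox1 and Sox5 have a point in 1 library each.

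Counted over the genes, a TSS peak was present for Gfi1 at 10 of 10 in tumor 39 and at 6 of 10 in tumor 41. Among all protein-coding genes the shares were 65.0% and 54.3%. For Lsd1 a TSS peak was present at 6 of 10 in tumor 39 and at 8 of 10 in tumor 41, against 58.5% and 61.7% of all protein-coding genes. The same 6 genes, Sox2, Sox4, Sox6, Sox8, Sox9 and Sox12, had a peak in both tumors for Gfi1 and in both tumors for Lsd1, where 53.9% and 57.7% of all genes did. A peak in all 4 libraries was thus present at 6 of 10 genes, against 53.1% of all genes, which is close to the background. The list that held a peak at every Sox gene was that of Gfi1 in tumor 39.

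High-confidence peaks were defined here after the study's description, but on the score rather than enrichment, so that the sets are not those of the study. A tumor 39 peak qualified when it ranked in the upper 20% of its list and 50% or more of it was covered by upper 20% peaks of tumor 41. Of the 4387 such Gfi1 peaks 6 lay in the windows of the Sox genes, and of the 5181 such Lsd1 peaks also 6. They fell on the same 4 genes for both factors, Sox4, Sox8, Sox9 and Sox12, each of which had at least 1 at a TSS. High-confidence peaks stood at a TSS of 22.9% of all protein-coding genes for Gfi1 and of 25.9% for Lsd1, from which 4 of 10 differs by fewer than 2 genes. No test was run. The counts over the 10 genes, chosen with earlier results of these data known, are set beside all genes as a description. Between the factors, 2 tumors against 2 are too few for an exact test to pass.

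**Figure D2:**
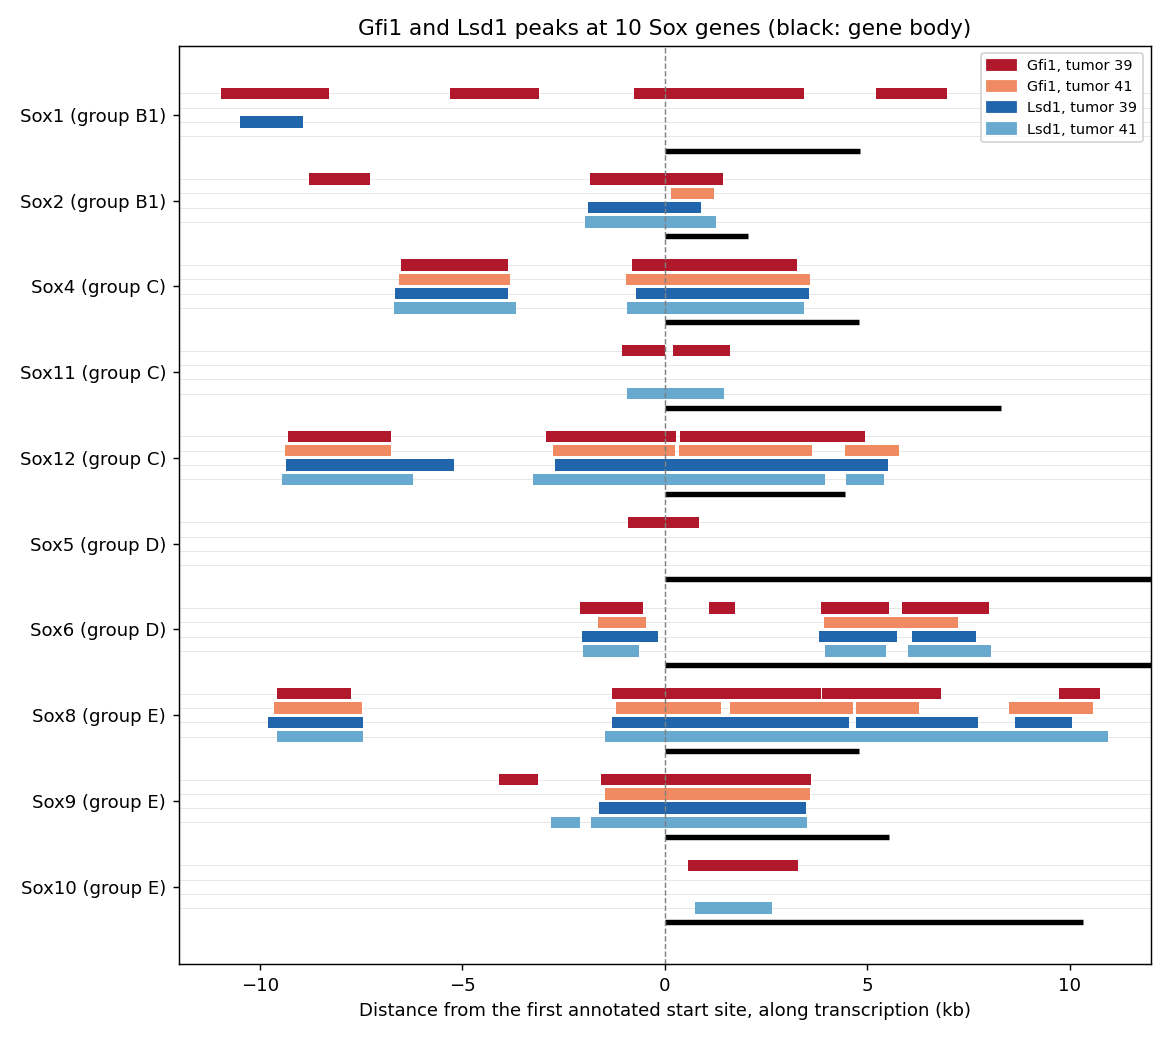
Peaks of the 4 lists (colored bars, 1 lane per library) around the first annotated TSS of each gene, in kb along the direction of transcription, with the gene body in black. The bars of the 4 libraries have nearly the same ends at Sox4 and Sox9, while Sox1, Sox5, Sox10 and Sox11 have lanes with no bar at the TSS. Peaks farther than 12 kb from the TSS are not drawn.

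In group C, Sox12 had the highest mean percentile of the 10 genes, though it cannot be ranked apart from Sox4 and Sox9, since 5 of the 12 library values of these genes were the tied score of 3100. It lies on the minus strand of chromosome 2 from 152393611 to 152398063 and has 1 or 2 exons, depending on the transcript. In tumor 39 its highest TSS peak stood at percentile 96.3 for Gfi1 and 99.7 for Lsd1, and in tumor 41 at 98.2 and 99.2. The means were 97.3 ± 1.3 (SD, n = 2) for Gfi1 and 99.4 ± 0.4 for Lsd1, and both Lsd1 values lay above both Gfi1 values. Both Lsd1 scores were this tied value, which corresponds to percentile 98.6 in the Gfi1 list of tumor 39, so that this order depends partly on the number of tied peaks per list. Of the 6 genes with peaks in all libraries, Sox12 was the 1 where the values of the factors did not overlap. The same order was found at 15.4% of the 11653 protein-coding genes with a TSS peak in all 4 libraries, and the reverse order, seen at 0 of the 6 Sox genes, at 16.5%.

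The Lsd1 domain at Sox12 was wide and in 1 piece over the promoter. It measured 8229 bp in tumor 39 and 7207 bp in tumor 41, and covered the whole gene in tumor 39. For Gfi1 the same stretch was called as separate peaks with a narrow break inside the gene. The break ran from 271 to 384 bp after the TSS in tumor 39, a gap of 114 bp, and from 258 to 356 bp in tumor 41, a gap of 99 bp. The peak on the promoter side was 3195 bp and 3026 bp wide, and that on the gene side 4567 bp and 3275 bp. The promoter side stood at percentile 96.1 and 98.2 and the gene side at 96.3 and 80.4 in tumors 39 and 41. The Gfi1 mean and SD given above therefore join the gene side of tumor 39 and the promoter side of tumor 41. Neither Lsd1 list had a break at this place. In tumor 41 both factors had a further, separate peak just beyond the 3′ end of the gene, at percentile 27.8 for Gfi1 and 14.8 for Lsd1. Lsd1 of tumor 41 was thus split there too. A further site upstream of Sox12, shared by the 4 libraries from -9298 to -6764 bp, stood at percentile 78.1 and 84.9 for Gfi1 and at 92.4 and 85.4 for Lsd1 in tumors 39 and 41, and lay over 1000 bp from any annotated TSS.

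The 250 bases before the first TSS of Sox12 (chr2:152398064-152398313, GRCm38.p6, minus strand, 5′ to 3′) are shown because this promoter is among the 3 of highest rank. They lie inside the peaks of all 4 libraries, hold 36 CpG dinucleotides and are 74.8% G and C. The core of the Gfi1 motif, AATC, is in capitals on either strand, where it reads AATC or GATT, and occurs here 1 time.
Sox12: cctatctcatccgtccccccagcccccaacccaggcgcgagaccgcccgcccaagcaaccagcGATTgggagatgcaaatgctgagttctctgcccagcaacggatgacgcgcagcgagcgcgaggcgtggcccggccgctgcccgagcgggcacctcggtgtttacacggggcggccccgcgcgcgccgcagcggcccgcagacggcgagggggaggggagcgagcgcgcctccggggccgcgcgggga

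Sox4 followed closely. It is a single-exon gene on the minus strand of chromosome 13 from 28948919 to 28953713. Its TSS peak stood at percentile 98.6 and 98.1 for Gfi1 and at 96.5 and 99.2 for Lsd1 in tumors 39 and 41. The values of the factors overlapped, with means of 98.4 ± 0.4 for Gfi1 and 97.9 ± 1.9 for Lsd1 (SD, n = 2). The peak was 4086 to 4564 bp wide and reached from between -963 and -706 bp before the TSS to between 3270 and 3600 bp after it, so that its edges moved by at most 257 bp and 330 bp between libraries. Most of its length lay on the exon rather than before it.

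A separate site stood upstream of Sox4 in every library, shared from -6505 to -3872 bp. Its percentile was 89.8 and 84.9 for Gfi1 and at 91.9 and 94.2 for Lsd1 in tumors 39 and 41, with a mean of 90.2 over the 4 lists. It was the highest of the 3 sites in these windows that lay over 1000 bp from every annotated TSS and were found in all libraries, and it was a high-confidence peak of both factors. The central 300 bases (chr13:28958751-28959050, GRCm38.p6, minus strand, 5′ to 3′) are shown as the distal site of highest rank among these 3, again with the Gfi1 core in capitals. They hold 15 CpG dinucleotides and are 64.7% G and C, and the core occurs 1 time.
Sox4 upstream site: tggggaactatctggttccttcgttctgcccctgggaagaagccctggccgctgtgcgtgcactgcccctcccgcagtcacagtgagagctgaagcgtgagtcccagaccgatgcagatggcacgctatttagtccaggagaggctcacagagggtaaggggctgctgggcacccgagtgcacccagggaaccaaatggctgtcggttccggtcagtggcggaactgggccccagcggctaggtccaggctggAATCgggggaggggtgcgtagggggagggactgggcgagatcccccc

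Sox11, the remaining gene of group C, stood below the other two in every library. It is a single-exon gene on the minus strand of chromosome 12 from 27334264 to 27342574. Gfi1 in tumor 39 had 2 peaks there, at percentile 43.9 over the TSS and at 21.4 from 205 bp after it, and Lsd1 in tumor 41 had 1 at percentile 55.0. The other libraries had no peak anywhere in the gene or the 10 kb around it. Tumor 39 gave the only Gfi1 peaks and tumor 41 the only Lsd1 peak, so that within neither tumor did the factors overlap at Sox11.

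In group E, Sox9 lies on the plus strand of chromosome 11 from 112782224 to 112787760 and has 3 exons. Its TSS peak stood at percentile 98.6 and 96.7 for Gfi1 and at 97.0 and 97.6 for Lsd1 in tumors 39 and 41. The means of 97.7 ± 1.4 for Gfi1 and 97.3 ± 0.4 for Lsd1 (SD, n = 2) differed by less than the spread of Gfi1. The peak was among those with the most constant ends. It began between -1808 and -1473 bp and ended between 3497 and 3617 bp after the TSS, a range of 120 bp, and measured 5056 to 5321 bp. A TSS of the noncoding gene BC006965, which runs the other way, lies within 1000 bp of it. Smaller peaks upstream, at percentile 32.8 for Gfi1 in tumor 39 and 12 for Lsd1 in tumor 41, were found in 1 library each and did not overlap each other.

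The 250 bases before the TSS of Sox9 (chr11:112781974-112782223, GRCm38.p6, plus strand, 5′ to 3′) are shown as a promoter of high rank with fewer CpG dinucleotides than that of Sox12, 11 against 36. The Gfi1 core, in capitals, occurs 4 times, of which 1 belongs to the longer form AATCAC, read here on the opposite strand. Within 500 bp of its TSS Sox9 has 76 CpG dinucleotides, more than the median of 41 over all protein-coding genes.
Sox9: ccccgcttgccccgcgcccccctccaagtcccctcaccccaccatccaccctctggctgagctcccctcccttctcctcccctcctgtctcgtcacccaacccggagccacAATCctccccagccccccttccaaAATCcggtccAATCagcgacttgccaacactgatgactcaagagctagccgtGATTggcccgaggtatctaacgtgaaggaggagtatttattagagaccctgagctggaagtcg

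Sox8, on the minus strand of chromosome 17 from 25565892 to 25570686, had TSS peaks at percentile 94.6 and 82.5 for Gfi1 and at 95.7 and 92.5 for Lsd1 in tumors 39 and 41. The means were 88.6 ± 8.6 for Gfi1 and 94.1 ± 2.3 for Lsd1 (SD, n = 2), and the values overlapped. Peaks covered nearly the whole gene. The TSS peak of Lsd1 measured 5837 bp in tumor 39 and 9151 bp in tumor 41, and that of Gfi1 5152 bp and 2596 bp. In tumor 41 the Gfi1 domain had breaks of 231 bp, from 1391 to 1621 bp after the first TSS, and of 73 bp. The piece between them stood at percentile 73.3. Gfi1 in tumor 39 had a break of 30 bp, and Lsd1 had breaks of 171 bp and 2 bp in tumors 39 and 41. The widths of the TSS peaks therefore depend on where each list was split. Upper 20% peaks of tumor 41 covered 50.4% of the Gfi1 peak of tumor 39, just over the 50% required of a high-confidence peak. A TSS of the antisense gene 2810468N07Rik lies within 1000 bp of these peaks, so that the 2 promoters cannot be told apart.

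Around Sox8 the libraries shared more sites than around any other of the genes. All 4 lists had a peak at the promoter of the neighbor Lmf1, between -9799 and -7447 bp, at percentile 71.8 and 51.7 for Gfi1 and 59.2 and 61.9 for Lsd1. All 4 also had one from 13237 to 14790 bp after the first TSS, beyond the 3′ end of the gene, at percentile 56.0 and 36.1 for Gfi1 and 50 and 58.1 for Lsd1. Between this site and the gene, each list had a peak at the noncoding gene AC131323.3, at percentile 19.5 and 45.6 for Gfi1 and 24.2 and 67 for Lsd1. None of these 3 was a high-confidence peak.

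Sox10, which marks the oligodendrocyte lineage, had TSS peaks of lower rank and in fewer libraries than Sox8 and Sox9. The gene lies on the minus strand of chromosome 15 from 79154908 to 79165240 and has 4 annotated TSSs. Gfi1 in tumor 39 had a peak at percentile 70.7 and Lsd1 in tumor 41 one at percentile 40.7, and the other libraries had none at a TSS. Both peaks began after the first TSS, 590 bp and 740 bp into the gene, and did not cover it. As at Sox11, the peaks came from Gfi1 in one tumor and Lsd1 in the other.

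In group B1, Sox2 lies on the plus strand of chromosome 3 from 34650405 to 34652461, within the long noncoding gene Sox2ot. The Gfi1 peak at its TSS stood at percentile 84.5 in tumor 39 but at 8.2 in tumor 41, and these averaged 46.4 ± 53.9 (SD, n = 2). The Lsd1 values of 57.5 and 73.1, with a mean of 65.3 ± 11.1, lay within the range of Gfi1. The Gfi1 peak of tumor 41 was 1061 bp wide and began 166 bp after the TSS. The others were 2788 to 3294 bp wide and covered the promoter from at least -1845 bp. A further peak at percentile 66.3, near a TSS of Gm42692 upstream, was in the tumor 39 Gfi1 list alone. Sox2 had the widest difference between Gfi1 replicates of the 6 genes with a TSS peak in all libraries.

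The 250 bases before the TSS of Sox2 (chr3:34650155-34650404, GRCm38.p6, plus strand, 5′ to 3′) are shown as a promoter of intermediate rank that holds both forms of the motif. The Gfi1 core, in capitals, occurs 2 times, and the first is part of AATCAC. This stretch lies in the peaks of Gfi1 in tumor 39 and of Lsd1 in both tumors, and before the start of the Gfi1 peak in tumor 41.
Sox2: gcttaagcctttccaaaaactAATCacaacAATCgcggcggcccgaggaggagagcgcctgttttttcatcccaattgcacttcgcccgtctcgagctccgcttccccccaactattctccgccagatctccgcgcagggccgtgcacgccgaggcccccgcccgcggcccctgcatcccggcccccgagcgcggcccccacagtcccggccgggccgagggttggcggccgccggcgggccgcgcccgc

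Sox1, the other gene of group B1, is a single-exon gene on the plus strand of chromosome 8 from 12395295 to 12400126. Gfi1 in tumor 39 had a TSS peak of 4198 bp at percentile 74.5, and the other libraries had none. The same list held 3 further peaks in the window at percentile 72.4, 62.6 and 52.0. Of these, the farthest upstream, near a TSS of Sox1ot, overlapped an Lsd1 peak of the same tumor at percentile 41.1. In tumor 41 neither factor had a peak in the gene or the 10 kb around it.

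In group D, Sox6 spans 567925 bp of the minus strand of chromosome 7, from 115470872 to 116038796, with 13 separate TSSs. Its highest TSS peak stood at percentile 77.4 and 62.7 for Gfi1 and at 55.9 and 67.9 for Lsd1 in tumors 39 and 41, with means of 70 ± 10.4 and 61.9 ± 8.5 (SD, n = 2) that overlap. Binding was at 2 places. The first was at internal TSSs, between 3801 and 8062 bp after the first one and partly at the antisense gene Sox6os, and the second was before the first TSS, from at most -2088 to -168 bp, where the gene 1110004F10Rik starts in the other direction. The highest Lsd1 peak of tumor 39 was at the second place, and those of the other libraries were at the first. Lsd1 of tumor 39 had peaks at percentile 54.6 and 51.1 at the first place. The Lsd1 mean and SD therefore join values of different places. At the second place the peaks stood at percentile 67.8 and 46.1 for Gfi1 and 55.9 and 53.7 for Lsd1, and which of the 2 promoters they belong to cannot be told apart. In the rest of this long gene 3 distal peaks were found, all in introns and all in Gfi1 of tumor 39 alone.

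Sox5 had the lowest mean rank of the 10 genes although it is the longest, with 953553 bp of the minus strand of chromosome 6 from 143828425 to 144781977 and 12 TSSs. Only Gfi1 in tumor 39 had peaks there, 1 of 1752 bp over the first TSS at percentile 55.6 and 1 of 837 bp in an intron at percentile 28.0. The other 3 lists had no peak over the whole gene. The 250 bases before the first TSS (chr6:144781978-144782227, GRCm38.p6, minus strand, 5′ to 3′) are shown as the promoter of lowest rank, with 8 CpG dinucleotides and the Gfi1 core, in capitals, 1 time.
Sox5: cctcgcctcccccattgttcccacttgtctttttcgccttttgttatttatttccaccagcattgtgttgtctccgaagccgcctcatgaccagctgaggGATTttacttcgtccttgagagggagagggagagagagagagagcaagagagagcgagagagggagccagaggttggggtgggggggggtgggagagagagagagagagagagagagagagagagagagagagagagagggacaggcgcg

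By the mean over the 4 lists, with no peak counted as 0, the order was Sox12 with 98.4, Sox4 with 98.1, Sox9 with 97.5, Sox8 with 91.3, Sox6 with 66.0, Sox2 with 55.8, Sox10 with 27.8, Sox11 with 24.7, Sox1 with 18.6 and Sox5 with 13.9. The library values of Sox12, Sox4 and Sox9 overlapped, and so did those of Sox6 and Sox2 and those of the last 4 genes. The 4 values of Sox8 lay below all those of Sox9 and above all those of Sox6. The median over the 10 genes was 80.9 and 35.5 for Gfi1 in tumors 39 and 41, against 67.6 and 31.5 over all protein-coding genes. For Lsd1 it was 56.7 and 70.5, against 50.5 and 60.5.

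The same 4 genes were covered widely in every list. Within 5 kb on either side of the first TSS, peaks covered 6849 to 7762 bp at Sox12, 5902 to 6470 bp at Sox8, 5215 to 5738 bp at Sox4 and 5056 to 6141 bp at Sox9. The median over all protein-coding genes was 1183 to 1639 bp, depending on the list. Between 90.5% and 98.4% of protein-coding genes were covered less than these 4 in the same list. Sox2 and Sox6 were covered over 1061 to 3334 bp. Where they had peaks, Sox11 with 2493 and 2394 bp and Sox10 with 2711 and 1916 bp lay in that range, and Sox5 had 1752 bp in 1 list, so that width did not set these genes apart from Sox2 and Sox6. Sox1 reached 6104 bp in Gfi1 of tumor 39, more than Sox4 in that list, and 0 bp in the other lists.

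**Figure D3:**
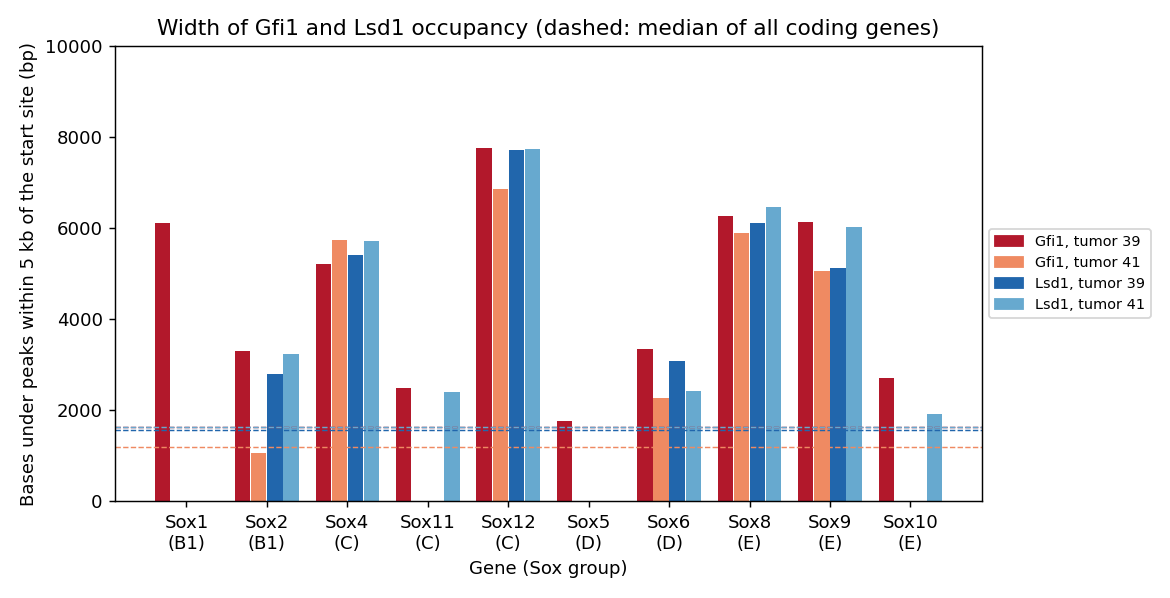
Bases under peaks within 5 kb on either side of the first TSS (vertical axis, bp), 1 bar per library, with the median of all protein-coding genes as a dashed line per library. The bars of Sox4, Sox8, Sox9 and Sox12 stand at 5056 bp or more in all 4 libraries, and the bars of Sox1 and Sox5 appear for Gfi1 in tumor 39 alone.

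How often a peak was found in the other tumor depended on the list it was counted from. Of the 30 Gfi1 peaks of tumor 39 in the windows, 15 overlapped a Gfi1 peak of tumor 41, or 50%, with an exact 95% binomial interval of 31.3% to 68.7% for counting error alone, while 16 of the 16 Gfi1 peaks of tumor 41 were found in tumor 39. Over all peaks of these lists the shares were 56.2% and 84.6%. For Lsd1, 15 of 16 peaks of tumor 39 were found in tumor 41, which is 93.8%, and 14 of 17 the other way, which is 82.4%, against 81.1% and 77.2% over all peaks. The Sox genes thus followed the order of the whole lists. When overlapping peaks within the windows were joined, 27 sites resulted, of which 11 were in all 4 libraries, 0 in 3, 3 in 2 and 13 in 1. Of these 13 single sites 11 came from Gfi1 in tumor 39, which is the longest list. The single Lsd1 site of tumor 39, at the edge of the Sox10 window, also overlapped peaks of 2 other lists that lay outside the window. With each list held to its 25078 highest scores, a comparison chosen after seeing the data, a TSS peak was present at 10 and 6 of the Sox genes for Gfi1 and at 6 and 8 for Lsd1 in tumors 39 and 41. The shares of all protein-coding genes were then 61.8% and 54.3% for Gfi1 and 56.7% and 59.4% for Lsd1. The part of the library and its depth in this was not tested.

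The overlap of the factors within a tumor was also set against all peaks. In tumor 41 all 8 Gfi1 peaks at a TSS of the Sox genes overlapped an Lsd1 peak, and in tumor 39 9 of 14 did, against 97.7% and 81.8% of Gfi1 peaks at a TSS of any protein-coding gene. The Lsd1 peaks at a TSS overlapped Gfi1 in 8 of 8 cases in tumor 39 and in 8 of 10 in tumor 41, where those of Sox10 and Sox11 did not, against 95.1% and 78.5% of Lsd1 peaks at any such TSS. Away from any annotated TSS, 6 of 6 Gfi1 peaks of tumor 41 and 4 of 10 of tumor 39 overlapped Lsd1 of the same tumor, against 78.4% and 57.6% of all such Gfi1 peaks. Some of these distal peaks, at Sox8 and Sox12, were parts of TSS sites once overlapping peaks of the lists were joined. After joining, 3 distal sites were in all 4 libraries. With counts this small, no share is read as particular to the Sox genes.

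Over all protein-coding genes, the median count of CpG dinucleotides within 500 bp of the first TSS was 63 with a peak in all 4 libraries, 45 with a Gfi1 peak in tumor 39 but not a peak in every library, and 8 with none. All 10 Sox genes belong to the first or second of these classes. The 6 genes with a peak in every library had a median of 75.5, and the other 4 one of 83.5. Sox11 with 100, Sox1 with 84 and Sox5 with 83 CpG dinucleotides had more than Sox9 with 76, Sox8 with 75 and Sox4 with 56. Sox12 had 126, Sox2 97, Sox6 24 and Sox10 13, and the low counts of Sox6 and Sox10 belong to first TSSs that were not covered by a peak.

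**Figure D4:**
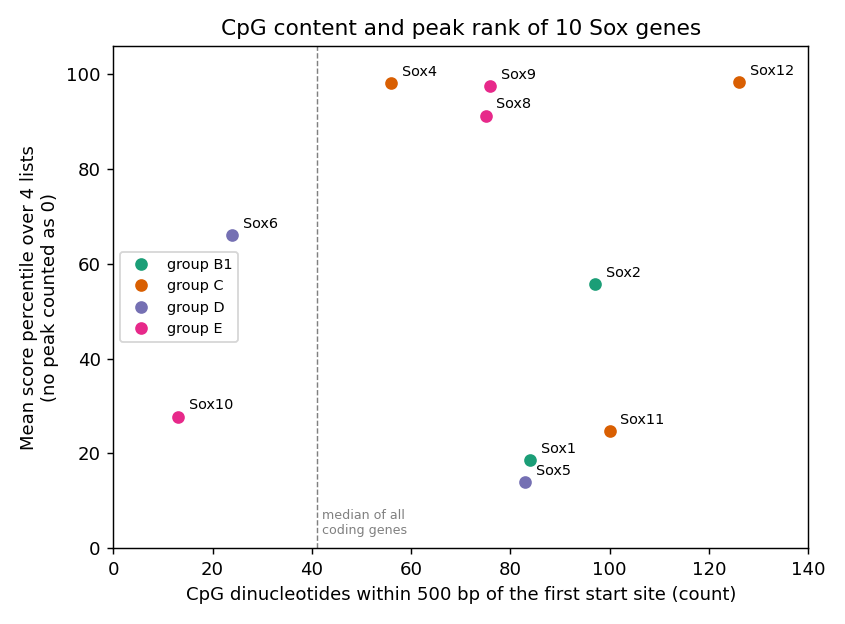
CpG dinucleotides within 500 bp of the first TSS (horizontal axis, count) against the mean score percentile over the 4 lists (vertical axis, no peak counted as 0), with 1 point per gene colored by Sox group. Sox1, Sox5 and Sox11 lie at low percentiles with 83 to 100 CpG dinucleotides, more than Sox4, Sox8 and Sox9 at the top. Sox12, also at the top, has the most with 126, and Sox10, at a low percentile, has the fewest with 13.

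The Gfi1 core was counted in the same promoters. In the 250 bases before the first TSS, AATC on either strand was present in 10 of 10 Sox genes and in 69.5% of all protein-coding genes. The longer AATCAC, which contains the core, was present in 2 of 10, Sox2 and Sox9, and in 9.3% of all genes. In the central 300 bases of peaks over 1000 bp from any TSS, AATCAC was found in 7.68% and 10.2% of the Gfi1 peaks and in 8.51% and 8.41% of the Lsd1 peaks of tumors 39 and 41. A match is a description of the letters and not a binding site.

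The other 10 members of the family, Sry and Sox3, Sox7, Sox13, Sox14, Sox15, Sox17, Sox18, Sox21 and Sox30, act mostly outside neural progenitors apart from Sox3 and Sox21. Gfi1 in tumor 39 had a TSS peak at 9 of these 10 and Gfi1 in tumor 41 at 3, and Lsd1 at 4 and 6. A peak in all 4 libraries was present at 3, Sox13, Sox15 and Sox30, against 53.1% of all protein-coding genes. A high-confidence peak of either factor was present at 0, against 22.9% of all protein-coding genes for Gfi1 and 25.9% for Lsd1. Sox3, the X-linked gene of group B1, had a peak in Gfi1 of tumor 39 alone, at percentile 41.7, as had Sox1 at its TSS. This was not particular to group B1. Sox14 at percentile 63.3, Sox17 at 11.3 and the member Sox5 also had a TSS peak in that list alone, and Sox2 had one in every list. Among 16 partners, targets and markers of Sox-expressing neural and glial cells, 6 had a TSS peak in all 4 libraries. This is 37.5%, below the 53.1% of all protein-coding genes. A high-confidence peak of Gfi1 was present at 0 of them and one of Lsd1 at 1, also below the shares of all genes. That 1 gene was Pou3f2, the gene of a POU factor that pairs with Sox2. Its TSS peaks stood at percentile 99.8 and 56.7 for Gfi1 and 84.1 and 91.5 for Lsd1. Both lists are small and were chosen with earlier results of these data known, so that these shares are a description only.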

How the data were processed

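ChIP-seq for Gfi1 and for Lsd1 was done on MG tumors 39 and 41, and libraries of the same number share a tumor. The authors aligned reads to mm10 with BWA 0.6.2, merged files with Picard, discarded duplicate reads and ran MACS with its defaults against input chromatin, giving 1 list per library. They deposited lists of positions with a score per peak. The score was used only as a percentile within a list, with mean ranks for ties, and took the place of enrichment in the high-confidence rule.

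Peaks were matched to GENCODE M21 (GRCm38, the build of mm10), where the study used an earlier release. Overlap required 1 bp. Sequences were read from GRCm38.p6, and motifs and CpG dinucleotides were counted around the first TSS of each gene. The genes named were the 10 members, and of 2 further lists mainly counts are given. Members and lists were chosen with earlier results of these data known. No test was run. Between the factors, 2 tumors per factor are too few for an exact test to pass, and members are set beside all genes or peaks as a description. Errors are the SD over tumors. Intervals cover counting error only. The overlap steps were tested on simulated data. Python 3.11.15, numpy 2.4.6, scipy 1.17.1, pysam 0.24.0 and matplotlib 3.10.9 were used. Alternatives varied the TSS window, the TSS set, the score cutoff, the replicate overlap, the gene window and the libraries, and lists of equal length were added after seeing the data. The input library and the study's other experiments were not analysed here.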

Additional observations from a re-analysis of the deposited data

How the results depend on the processing

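Of 45 values recomputed under an alternative, 42 stayed within 1.5 times the count, the SD between tumors or the binomial interval, a wide margin for 10 genes, and 3 did not. Without Gfi1 replicate 2 (tumor 41), 10 genes had a Gfi1 TSS peak rather than 6, and without replicate 1 there were 6. The share of Gfi1 peaks found in the other tumor was 50% from tumor 39 and 100% from tumor 41. With the gene body alone, 100% of the tumor 39 Lsd1 peaks were found in tumor 41. Leaving out 1 Lsd1 replicate gave 6 to 8 genes with an Lsd1 TSS peak. The high-confidence count for Gfi1 ran from 3 at the upper 10% of the score, where Sox8 was lost, to 5 at the upper 40%, where Sox6 was added, and that for Lsd1 was 4 under each alternative run. At the upper 40%, Sox2 was lost for Gfi1, leaving 5 genes in both tumors, and Sox2 and Sox6 for Lsd1, leaving 4. The shares of all protein-coding genes at the upper 10% and 40% are not given here. The counts at these cutoffs are therefore not read as a result about the Sox genes. The median percentile over the 10 genes without 1 replicate ran from 35.5 to 80.9 for Gfi1 and from 56.7 to 70.5 for Lsd1. These values count among the 42 but could not have moved, since either of 2 values lies within 1 SD of their mean. They are therefore no sign of stability. Because same-numbered libraries come from one tumor, distal Gfi1 peaks were paired with Lsd1 of the same tumor, and 62.5% of 16 overlapped it. With the pairing crossed the share was also 62.5%. The 16 peaks include parts of TSS sites at Sox8 and Sox12.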
